A study of Mus musculus with 24 samples.

Results

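Type I interferon-stimulated genes were followed in mouse bone marrow-derived macrophages with and without the liver X receptors. The set held 51 genes of 47372 listed in the deposited tables. Its members were chosen by gene symbol from the classical targets of the type I interferon receptor, with earlier results of these data known. All 51 passed the filter on low values in every fit, which asked for at least 10 normalized counts in at least 3 of 12 libraries.

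The tested macrophages came from double knockout (DKO) mice that lack both LXRα and LXRβ, and the controls came from LXR-positive mice, all on the C57BL/6J strain. Each genotype was represented by 3 mice aged 8 to 12 weeks, and the marrow of each mouse gave 1 library for every treatment, 24 libraries in all. Cells of both genotypes were grown with 20% fetal bovine serum and 30% medium conditioned by L929 fibroblasts, which supplies macrophage growth factor. On day 5 they received Kdo2-lipid A (KLA, a pure lipopolysaccharide-like ligand of TLR4) at 100 ng/ml, the synthetic LXR agonist GW3965 at 1 µM, acetylated LDL (AcLDL, which loads macrophages with cholesterol) at 50 µg/ml, or vehicle. KLA, GW3965 and vehicle were left on the cells for 17 hours, and the labels give no time for AcLDL. These are cultured macrophages, not resident tissue cells, and the labels do not describe how the LXR alleles were made.

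Type I interferons bind the receptor IFNAR on the cell surface, whose kinases TYK2 and JAK1 phosphorylate STAT proteins, STAT2 among them. STAT2 and IRF9 are subunits of the complex ISGF3, which binds interferon-stimulated response elements (ISREs) in the promoters of target genes. In macrophages TLR4 signals through the adaptor TRIF to IRF3 and interferon-β, so that a lipid A ligand turns on the same targets through secreted interferon, and these genes also have a basal level in unstimulated cells. Their products sense viral nucleic acid, block viral translation and assembly, or restrain the response itself.

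Promoter sequence was examined first. The members are classical targets of a receptor whose complex ISGF3 binds ISREs, so their share of ISREs is not independent of their choice. RefSeq windows on GRCm38.p6, from 250 bases before to 50 bases after each annotated start, were matched by symbol for 40 of the 51 members. The ISRE core, which is GAAA, any 2 bases and GAAA again, was sought on both strands, and it was present in 19 of these 40 genes (47.5%) and in 3.99% of the 27025 genes with a window. The longer form, the core followed by CT, was present in 12 of 40 members (30%) and in 0.303% of all genes. The GAS element TTCNNNGAA, a second kind of interferon-responsive motif, was present in 8 of 40 (20%) and in 9.55% of all genes. A match describes letters in a window and is not evidence of binding. The 5 promoters below belong to genes whose values by library are given later and show how the matches are placed. The windows of Irf7 and Trim25, whose values are also given by library, had 0 matches in the same 200 bases and are not printed. Each is given as the 200 bases before the RefSeq start, 5′ to 3′ on the strand of the gene, with every ISRE core match in capitals.
Isg15 (chr4:156200819-156201018, minus strand): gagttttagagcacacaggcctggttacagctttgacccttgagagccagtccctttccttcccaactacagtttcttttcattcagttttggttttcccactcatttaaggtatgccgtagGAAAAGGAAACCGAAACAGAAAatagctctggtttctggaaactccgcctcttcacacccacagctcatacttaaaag
Oas1g (chr5:120887614-120887813, minus strand): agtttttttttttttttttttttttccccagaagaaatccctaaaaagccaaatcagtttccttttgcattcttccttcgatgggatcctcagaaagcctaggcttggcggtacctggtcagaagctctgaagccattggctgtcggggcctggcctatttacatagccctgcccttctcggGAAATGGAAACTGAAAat
Ifit1 (chr19:34640689-34640888, plus strand): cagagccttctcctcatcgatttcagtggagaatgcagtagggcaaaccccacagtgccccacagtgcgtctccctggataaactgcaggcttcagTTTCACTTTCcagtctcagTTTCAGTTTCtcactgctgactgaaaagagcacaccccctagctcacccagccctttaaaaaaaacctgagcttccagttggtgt
Ifit3 (chr19:34583329-34583528, plus strand): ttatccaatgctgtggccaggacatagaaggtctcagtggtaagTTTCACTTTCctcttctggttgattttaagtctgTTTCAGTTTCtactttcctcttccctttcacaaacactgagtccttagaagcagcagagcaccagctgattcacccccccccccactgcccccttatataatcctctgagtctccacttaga
Ifit3b (chr19:34607757-34607956, plus strand): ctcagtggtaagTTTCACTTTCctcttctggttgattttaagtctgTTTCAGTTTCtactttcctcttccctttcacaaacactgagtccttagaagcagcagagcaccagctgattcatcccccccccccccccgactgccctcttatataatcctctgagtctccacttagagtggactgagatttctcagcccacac

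In Isg15 the 3 overlapping matches began 66 to 78 bases before the start, and in Oas1g the 2 overlapping matches began 12 and 18 bases before it. The Ifit1, Ifit3 and Ifit3b windows each held 2 separate matches on the opposite strand, read as TTTC. In Ifit1 these began 85 and 104 bases before the start, in Ifit3 122 and 156 bases, and in Ifit3b 154 and 188 bases.

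Ifit3 and Ifit3b are near copies, and so are Oas1a and Oas1g, which limits how far their values can be told apart. Of the 31-base words of the Ifit3 transcripts, 61.8% also occur in other genes, nearly all of them in Ifit3b. The share was 55.3% for Ifit3b, 68.8% for Oas1a, 55.1% for Oas1g and 62.9% for Phf11b, and 16 members were over 10%. All 6 OAS genes lie on chromosome 5 and all 4 IFIT genes on chromosome 19, and in GENCODE M21 on GRCm38 Isg15 spans chr4:156199424-156200818. For 6 members, exons overlap those of a gene on the other strand by 45 to 1365 bases, Adar and Chrnb2 by the most. No label says whether the counting used strand.

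The libraries held 9705391 to 27189081 assigned reads in DKO and 6448579 to 17348717 in LXR-positive macrophages. The 11 macrophage markers, Csf1r and Adgre1 among them, summed to 154337 to 353331 normalized counts in DKO and 236534 to 454038 in LXR-positive libraries. Within each treatment every DKO sum lay below every LXR-positive sum. With vehicle these were 192605 to 229825 in DKO and 243034 to 314523 in LXR-positive cells. Single markers did not all follow the sums. With KLA 8 of the 11 were higher in DKO, 2 of them called and 0 called lower. With GW3965 5 of the 11 were higher in DKO, with AcLDL 4 and with vehicle 4. Their part in the genotype differences below was not tested. In vehicle, the 9 neutrophil markers summed to 6205 to 8836 in DKO and 4203 to 4626 in LXR-positive cells, and the 6 stromal markers to 203 to 3433 in DKO and 68.4 to 736 in LXR-positive cells. Of the 10 plasmacytoid dendritic cell markers, 5 stayed under 10 normalized counts in every library. With vehicle the 10 summed to 2927 to 3500 in DKO and 2820 to 3427 in LXR-positive cells. With KLA they summed to 1513 to 1624 in DKO and 1228 to 1513 in LXR-positive cells. Of the 5 tested for KLA against vehicle, 2 were called lower and 0 higher in DKO. In LXR-positive cells 1 was called lower and 1 higher. Whether such cells were present was not tested. The knockout was visible in the agonist response. The cholesterol exporter Abca1, a direct LXR target, had 16446, 17074 and 14916 normalized counts with GW3965 and 14347, 16732 and 14223 with vehicle in DKO, against 37655, 42061 and 35962 with GW3965 and 9154, 8698 and 8200 with vehicle in LXR-positive cells (difference in response -2.05 on the log2 scale, limma adjusted p = 4.35e-05). Counts over the whole Nr1h3 and Nr1h2 genes do not check a deletion of part of them. In bulk RNA, fewer responding cells and less RNA per cell cannot be told apart.

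KLA raised most of the 51 genes in both genotypes. With the limma test and Benjamini-Hochberg adjustment over all 15957 genes, 45 members rose and 0 fell in DKO, where 14% of all genes rose and 11.1% fell, and 37 rose and 1 fell in LXR-positive macrophages, where 16.2% of all genes rose and 12.4% fell. The median log2 fold change of the 51 genes was 1.26 in DKO and 0.88 in LXR-positive cells, while that of all genes was -0.0038 in DKO and -0.0028 in LXR-positive cells. In DKO 48 members had all 3 KLA libraries above all 3 vehicle libraries, as did 23.6% of all genes, and in LXR-positive cells 37 had, as did 21.6% of all genes. Without mouse 2 of both genotypes, 46 rose in DKO with a median of 1.15, and 28 rose and 2 fell in LXR-positive cells with a median of 0.57. That setting was chosen after seeing the data, and its share of all genes is not given here. Other signals moved with KLA. Of 8 neutrophil markers tested, 3 fell in DKO and 7 fell in LXR-positive cells. The mitochondrial share of reads was 8.76% to 12.6% with KLA and 14.02% to 16.6% with vehicle in DKO, and 8.99% to 15.5% with KLA and 14.3% to 19.3% with vehicle in LXR-positive cells. Their part in the KLA values was not tested.

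**Figure D1:**
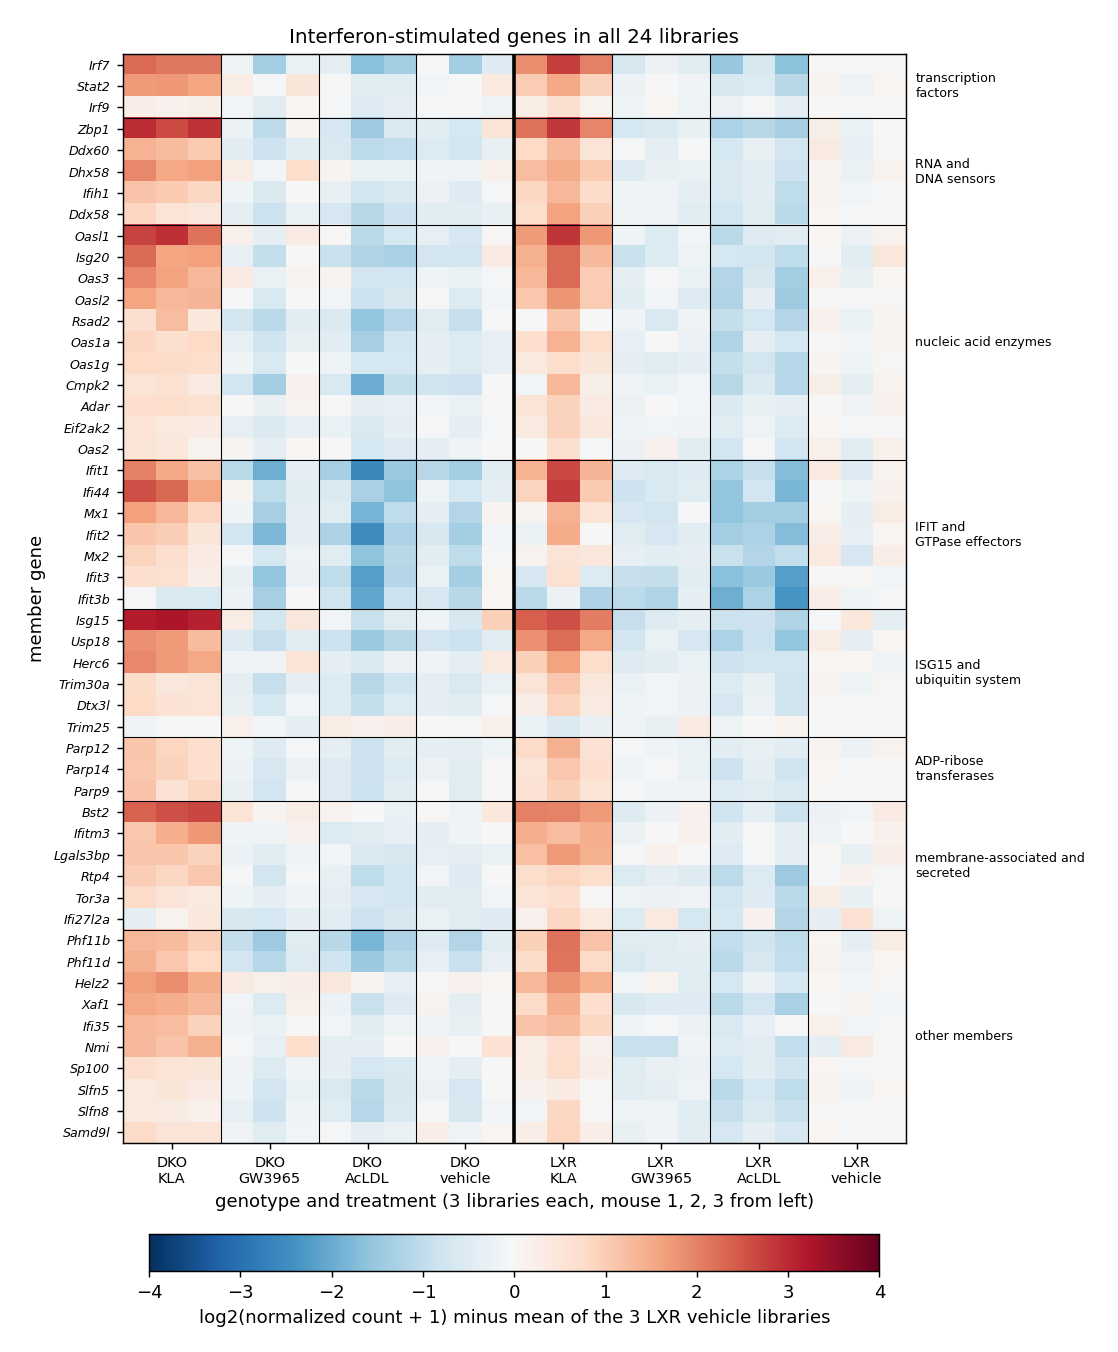
Level of the 51 genes in all 24 libraries, as log2(normalized count + 1) minus the mean of the 3 LXR-positive vehicle libraries of the same gene, with genes in rows grouped by role and mouse 1 to 3 from left to right in each group of libraries. The KLA libraries are red for nearly every gene, while Trim25 stays pale and Ifit3b is blue in LXR-positive KLA mice 1 and 3.

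The heatmap of all 24 libraries also shows that single mice set part of the pattern. The KLA library of LXR-positive mouse 2 was the highest of its group, with 49 of 51 members above their group mean and a mean deviation of 0.44 on the log2 scale. Of the DKO mouse 2 libraries, 4 of 51 members were above the group mean in vehicle, 0 in GW3965 and 3 in AcLDL, while 27 were in KLA. Taken mouse by mouse against its own vehicle library, KLA was higher for 49, 51 and 49 of the 51 genes in DKO mice 1, 2 and 3, with medians of 1.37, 1.56 and 0.92. In LXR-positive mice 1, 2 and 3 it was higher for 42, 49 and 44 genes, with medians of 0.64, 1.42 and 0.59.

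**Figure D2:**
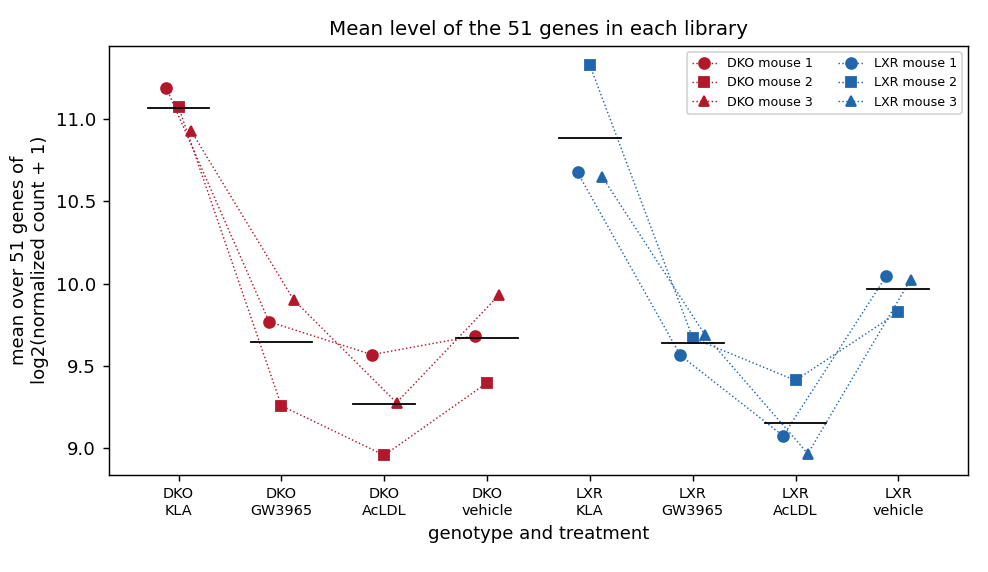
Mean over the 51 genes of log2(normalized count + 1) in each library, with DKO groups left of LXR-positive groups, black bars for group means and dotted lines joining libraries of 1 mouse. KLA libraries lie at 10.9 to 11.2 in DKO and 10.7 to 11.3 in LXR-positive cells, and AcLDL libraries at 8.95 to 9.57 in DKO and 8.96 to 9.41 in LXR-positive cells.

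The plot of mean levels puts every KLA library above every vehicle library of its genotype. Vehicle libraries lay at 9.40 to 9.93 in DKO and 9.83 to 10.04 in LXR-positive cells. GW3965 libraries lay at 9.26 to 9.90 in DKO and 9.56 to 9.69 in LXR-positive cells.

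Of the transcription factors, Irf7, the inducible factor that amplifies interferon-α production, had 6068, 5457 and 5458 normalized counts with KLA and 1273, 491 and 886 with vehicle in DKO. In LXR-positive cells it had 4643, 8680 and 5117 with KLA and 1301, 1259 and 1248 with vehicle. The groups did not overlap in either genotype, and Irf7 rose by 2.78 ± 0.29 in DKO (SE, n = 3 each, limma adjusted p = 3.19e-05) and by 2.22 ± 0.29 in LXR-positive cells (adjusted p = 0.000154) on the log2 scale. Stat2, the ISGF3 subunit that carries its activation domain, had 3609, 3670 and 3293 with KLA and 1025, 1087 and 1456 with vehicle in DKO, and 2226, 3136 and 2098 with KLA and 1203, 960 and 1166 with vehicle in LXR-positive cells. It rose by 1.58 in DKO and by 1.15 in LXR-positive cells. Irf9, the DNA-binding subunit, moved least of the 3 factors. It rose by 0.34 in DKO (limma adjusted p = 0.048) and by 0.37 in LXR-positive cells (adjusted p = 0.033), and it was called in 6 of 22 settings in DKO and in 12 of 22 in LXR-positive cells. Each call was lost with mouse as a block and without any 1 of the LXR-positive vehicle libraries.

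All 5 sensors rose in both genotypes. Zbp1, a sensor of Z-form nucleic acid that starts necroptosis, had 4878, 3871 and 4676 normalized counts with KLA and 473, 388 and 911 with vehicle in DKO, against 2832, 4488 and 2430 with KLA and 744, 528 and 645 with vehicle in LXR-positive cells. Its log2 fold change was 3.01 in DKO and 2.31 in LXR-positive cells, second to Isg15 in each. The RNA helicases Ddx58 (RIG-I), Ifih1 (MDA5), Dhx58 (LGP2) and Ddx60 rose by 1.01, 1.27, 1.77 and 1.79 in DKO and by 1.10, 0.96, 1.26 and 0.88 in LXR-positive cells. The LXR-positive call for Ddx60 was lost without mouse 2 of both genotypes.

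Of the 11 nucleic acid enzymes, 10 rose in DKO and 8 in LXR-positive cells. Oasl1, an oligoadenylate synthetase-like protein that inhibits translation of Irf7 in mice, had 595, 704 and 418 normalized counts with KLA and 73.0, 56.4 and 93.8 with vehicle in DKO, and 300, 671 and 304 with KLA and 96.4, 77.8 and 101 with vehicle in LXR-positive cells. It rose by 2.92 in DKO and by 2.10 in LXR-positive cells. The exonuclease Isg20 rose by 2.22 in DKO and by 1.66 in LXR-positive cells, although the LXR-positive call was lost without mouse 2 of both genotypes. Eif2ak2 (PKR, the kinase that halts translation) rose by 0.57 in each genotype. Rsad2 (viperin, which makes a chain-terminating nucleotide) had 1998, 3002 and 1702 with KLA and 904, 677 and 1218 with vehicle in DKO, and it rose by 1.26 there. In LXR-positive cells Rsad2 had 1247, 2742 and 1260 with KLA and 1424, 1056 and 1381 with vehicle, so that only mouse 2 lay above the vehicle libraries, and its log2 fold change of 0.35 did not pass (limma adjusted p = 0.44). Oas2 passed in neither genotype, with 0.56 in DKO and 0.22 in LXR-positive cells. Cmpk2, the neighbour of Rsad2 that makes its substrate, was called in DKO at 1.05, a call made in 15 of 22 settings and lost with mouse as a block, and had 0.48 in LXR-positive cells, which did not pass.

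Of the 7 genes for IFIT proteins, which bind foreign RNA, and for Mx and Ifi44 proteins, 5 rose in DKO and 2 in LXR-positive cells, a gap between counts that was not itself tested. Ifit1 had 7873, 5735 and 4431 normalized counts with KLA and 912, 759 and 1427 with vehicle in DKO, against 5114, 12125 and 5015 with KLA and 2501, 1363 and 2170 with vehicle in LXR-positive cells. It rose by 2.55 in DKO and by 1.80 in LXR-positive cells, and Ifi44 rose by 2.54 in DKO and by 1.58 in LXR-positive cells, where the call was lost without mouse 2 of both genotypes (limma adjusted p = 0.0602). The deposited annotation gives Mx2 the biotype polymorphic pseudogene, and whether either Mx gene yields a working protein here was not examined. Mx1, of the Mx GTPase family, had 2812, 2261 and 1616 with KLA and 697, 401 and 973 with vehicle in DKO and rose by 1.75. In LXR-positive cells Mx1 had 960, 2351 and 1313 with KLA and 947, 690 and 1100 with vehicle, and its 0.68 did not pass (limma adjusted p = 0.18).

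Ifit3 and Ifit3b passed in neither genotype in the limma test of all 12 libraries. Of 22 settings, Ifit3 was called in 4 in DKO and in 1 in LXR-positive cells. Ifit3b was called in 0 in DKO and in 5 in LXR-positive cells. Without mouse 2 of both genotypes, Ifit3 and Ifit3b were the 2 members that fell in LXR-positive cells, and the Trim25 call was lost. Ifit3 had 2827, 2688 and 2157 normalized counts with KLA and 1473, 699 and 1895 with vehicle in DKO, which gave 1.02 and did not pass (limma adjusted p = 0.055). In LXR-positive cells it had 1118, 2688 and 1213 with KLA and 1834, 1855 and 1653 with vehicle, so that KLA mice 1 and 3 lay below every vehicle library and mouse 2 above. The log2 fold change there was -0.21 ± 0.36 (limma adjusted p = 0.70). It was -0.61 without KLA library 2 and 0.02 without KLA library 1. Ifit3b had 328, 230 and 224 with KLA and 216, 158 and 361 with vehicle in DKO, and 162, 291 and 146 with KLA and 414, 307 and 324 with vehicle in LXR-positive cells, where every KLA library lay below every vehicle library and the log2 fold change was -0.86 ± 0.31 (limma adjusted p = 0.058). The ISRE matches in their promoters, printed above, have the same order and spacing in both genes. Members with an ISRE core match had a median KLA log2 fold change of 1.26 in DKO and 0.92 in LXR-positive cells, and members with a window but no match had 1.38 in DKO and 0.96 in LXR-positive cells.

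**Figure D3:**
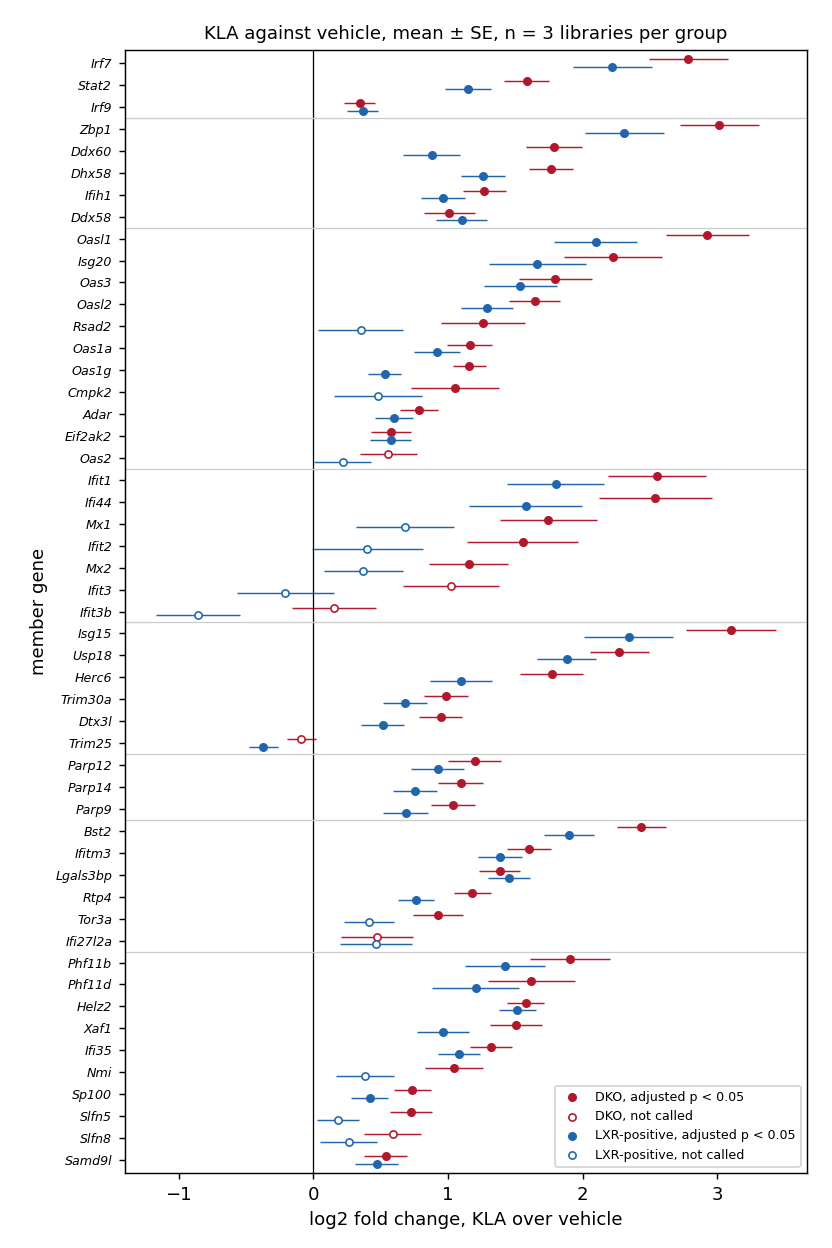
Log2 fold change of KLA over vehicle for each of the 51 genes ± the limma SE, which pools all 12 libraries of the fit, with 3 libraries per group. DKO is in red above LXR-positive in blue, filled where the limma adjusted p was under 0.05. Isg15 lies at 3.10 in DKO and 2.34 in LXR-positive cells, and Ifit3b and Trim25 lie at the left end.

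In the ISG15 and ubiquitin system, 5 of 6 genes rose in each genotype. Isg15, the ubiquitin-like modifier, had 521, 558 and 496 normalized counts with KLA and 51.3, 37.4 and 113 with vehicle in DKO, against 311, 352 and 246 with KLA and 55.9, 78.6 and 45.2 with vehicle in LXR-positive cells. It showed the largest log2 fold change of the members in each genotype, 3.10 ± 0.33 in DKO (SE, n = 3 each, limma adjusted p = 3.67e-05) and 2.34 ± 0.33 in LXR-positive cells (adjusted p = 0.000261). Usp18, the protease that removes ISG15 and restrains IFNAR, rose by 2.27 in DKO and by 1.88 in LXR-positive cells. Trim25, the ubiquitin ligase that activates RIG-I, was the 1 member that fell in the limma test of all 12 libraries. It had 2843, 2276 and 2776 with KLA and 3241, 3510 and 3435 with vehicle in LXR-positive cells, a log2 fold change of -0.37 (limma adjusted p = 0.022) called in 16 of 22 settings and lost without LXR-positive vehicle library 2 or 3 or KLA library 2, and 3084, 3432 and 3400 with KLA and 3434, 3265 and 3867 with vehicle in DKO, where -0.09 did not pass. Dtx3l passed at 0.51 in LXR-positive cells, a call made in 14 of 22 settings, and at 0.95 in DKO.

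The 3 ADP-ribose transferases Parp9, Parp12 and Parp14 rose by 1.04 to 1.20 in DKO and by 0.68 to 0.92 in LXR-positive cells. Of the 6 membrane-associated and secreted products, 5 rose in DKO and 4 in LXR-positive cells. Bst2 (tetherin, which holds budding virus on the cell) rose by 2.43 in DKO and by 1.90 in LXR-positive cells. Ifitm3, which blocks viral fusion in endosomes and had the highest level per kilobase of exon of the members in both genotypes, rose by 1.60 in DKO and by 1.38 in LXR-positive cells. Its level with KLA was 7645 normalized counts per kilobase in DKO and 7374 in LXR-positive cells. Ifi27l2a did not pass, with 0.47 in each genotype, and Tor3a passed only at 0.92 in DKO, with 0.41 in LXR-positive cells. Of the 10 other members 9 rose in DKO and 7 in LXR-positive cells. The coactivator Helz2 rose by 1.58 in DKO and by 1.51 in LXR-positive cells, and Slfn8 passed in neither.

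No member's KLA response differed between the genotypes past the threshold. The difference in log2 fold change, DKO minus LXR-positive, was positive for 48 of 51 members against 50.1% of all genes, with a median of 0.43 against 0.0013. None passed in limma, edgeR or DESeq2, and 6 had an unadjusted p under 0.05 with a positive sign (background: 0% of all genes called higher, 0.0689% called lower, and 2.53% higher at that unadjusted p). These were Oas1g, Ddx60, Slfn5, Ifit3, Ifit3b and Dhx58, at 0.63 ± 0.17, 0.91 ± 0.30, 0.54 ± 0.22, 1.23 ± 0.51, 1.01 ± 0.44 and 0.51 ± 0.23 (SE), with limma adjusted p from 0.74 to 0.86. The IFIT and GTPase genes had the largest median difference of the role groups, 1.01, with all 7 positive. In the authors' deposited table of this difference 47 of 51 members were positive with a median of 0.401, and 0 passed, where 0.296% of all genes did.

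**Figure D4:**
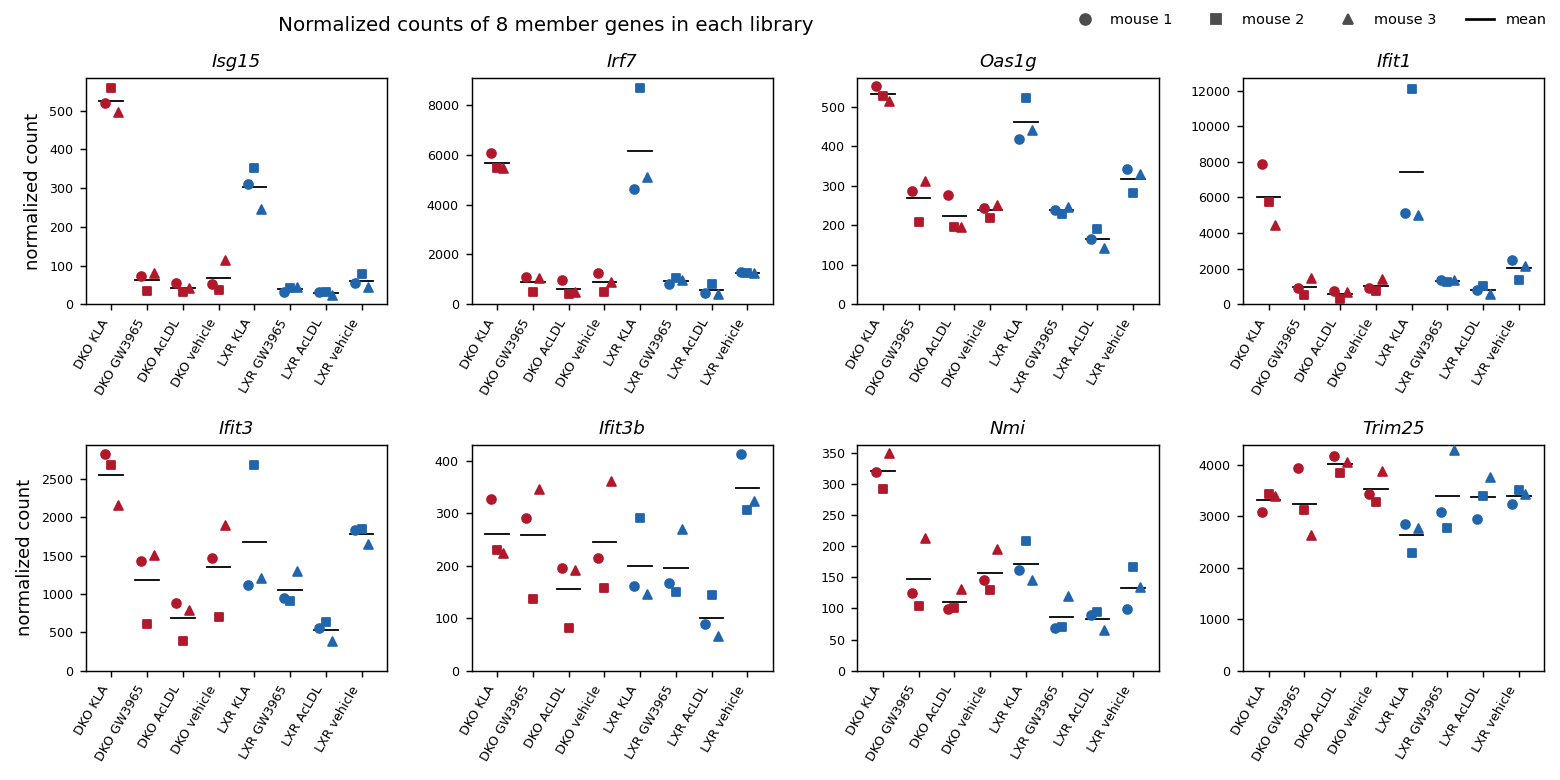
Normalized counts of 8 members in each library, DKO groups in red left of LXR-positive groups in blue, with mouse 1 as circles, mouse 2 as squares, mouse 3 as triangles and bars for means. Ifit3 reaches 2688 in KLA mouse 2 of the LXR-positive group against 1118 and 1213 in mice 1 and 3, and Nmi is higher in all DKO KLA libraries than in LXR-positive KLA libraries.

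With KLA, 1 of the 51 members was called higher in DKO, a smaller share than the 3.01% of all genes called higher. Nmi, a partner of Ifi35 that binds STAT proteins, had 319, 291 and 349 normalized counts in DKO and 162, 208 and 146 in LXR-positive cells, as the plot of 8 genes by library shows. The groups did not overlap and the difference was 0.90 ± 0.22 on the log2 scale (SE, n = 3 each, limma adjusted p = 0.031), where 3.01% of all genes were called higher. The call was made in 15 of 21 settings and lost when KLA library 1 or 3 of the LXR-positive mice or any 1 of the 3 DKO KLA libraries was left out, or mouse 2 of both genotypes. Without LXR-positive KLA library 2, 5 members were called higher in DKO, and the share of all genes without that library is not given here. In the KLA libraries the neutrophil markers summed to 3313 to 7257 in DKO and 1990 to 2618 in LXR-positive cells, and their part in the result was not tested.

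Upstream of the members, interferon transcripts were close to absent at the time of collection. Ifnb1, encoding interferon-β, was above 0 in 3 of 24 libraries, all of DKO mouse 3, and at most 1.35 normalized counts, and only Ifng of 20 interferon genes passed the filter. Ifng, encoding the type II interferon, had 22.0, 6.47 and 13.5 with KLA and 0, 0 and 0.902 with vehicle in DKO, and rose (limma adjusted p = 0.0053). In LXR-positive cells it had 1.30, 10.5 and 1.52 with KLA and 0 in all 3 vehicle libraries, and did not pass (adjusted p = 0.064). The 8 T and NK cell markers, of which 6 stayed under 10 in every library, summed to 41.6 to 52.7 in DKO KLA and 8.99 to 20.9 in LXR-positive KLA libraries, and their part in the Ifng values was not tested.

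Of the 9 receptors and kinases, 4 rose and 2 fell in DKO and 3 rose and 2 fell in LXR-positive cells. Ifnar1 rose by 0.93 in DKO and by 0.97 in LXR-positive cells, and the kinase Jak2 by 2.58 in DKO and by 2.79 in LXR-positive cells. Ifnar2 passed at 0.60 in DKO and had 0.41 in LXR-positive cells, which did not pass. Ifngr1 fell by 0.90 in DKO and by 1.03 in LXR-positive cells. Of the IRF factors outside the set, Irf1 rose by 1.75 in DKO and had 0.55 in LXR-positive cells, which did not pass, and Irf8 fell by 0.84 in LXR-positive cells and had -0.25 in DKO, which did not pass. Irf3, which is activated by phosphorylation, did not pass in either. With KLA, Irf1 was higher in DKO than in LXR-positive cells by 1.12 (limma adjusted p = 0.015) and Irf8 by 0.53 (adjusted p = 0.017), and Tlr4 was lower in DKO by -0.64 (adjusted p = 0.041). Of the 7 inhibitors of the receptor signal, 3 rose and 1 fell in DKO and 4 rose and 1 fell in LXR-positive cells. Socs1 rose by 3.82 in DKO and by 3.34 in LXR-positive cells, and Socs3 by 4.65 in DKO and by 4.19 in LXR-positive cells. Of the 13 genes of the TLR4 and adaptor arm 5 rose in each genotype.

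Acetylated LDL gave lower values for the whole set in LXR-positive cells. All 51 members had a negative log2 fold change there, as did 50.3% of all genes, with a median of -0.78 against -0.0014 for all genes. In DKO 50 of 51 were negative, as were 49.9% of all genes, with a median of -0.39 against 0.0004. The adjusted test called 0 members in DKO (background 0.112% called lower) and 1 in LXR-positive cells (background 0.125%). At an unadjusted p under 0.05, 19 members were lower in DKO, where 3.73% of all genes were, and 46 were lower in LXR-positive cells, where 7.01% were. All 3 AcLDL libraries lay below all 3 vehicle libraries for 5 members in DKO (5.67% of all genes) and for 43 in LXR-positive cells (9.3% of all genes). Both comparisons use the vehicle libraries that serve for KLA and GW3965.

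The call that passed was Oas1g. It had 164, 190 and 143 normalized counts with AcLDL and 344, 282 and 330 with vehicle in LXR-positive cells, without overlap, and fell by 0.94 ± 0.16 on the log2 scale (SE, n = 3 each, limma adjusted p = 0.042). In DKO it had 277, 195 and 196 with AcLDL and 244, 218 and 252 with vehicle, a log2 fold change of -0.11 (adjusted p = 0.95). The LXR-positive call was made in 8 of 22 settings, with limma adjusted p up to 0.172 in the others. It was lost without any 1 of the 6 LXR-positive libraries, without DKO vehicle library 1, and without DKO AcLDL library 2 or 3. It was also lost without mouse 2 of both genotypes, with only the 6 libraries compared, with no filter on low values, with quantile normalization, and by edgeR. Oas1g is also a near copy of Oas1a, which had -0.75 and did not pass.

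The number of members that passed in LXR-positive cells depended on the test used and on how mouse was treated. Libraries of the same number came from the same mouse, and with mouse as a block 22 members fell in LXR-positive cells (background 1%) and 1 fell in DKO (background 0.206%). By DESeq2, without a mouse term, 28 fell in LXR-positive cells (background 1.14%) and 0 in DKO (background 0.281%), and by edgeR 0 in either. Without mouse 2 of both genotypes 14 fell in LXR-positive cells, a setting chosen after seeing the data whose share of all genes is not given here. With the block, Irf7, at 440, 821 and 406 with AcLDL and 1301, 1259 and 1248 with vehicle in LXR-positive cells, fell by 1.27 (limma adjusted p = 0.022 with the block, 0.23 without it). Mx1, at 301, 344 and 342 with AcLDL and 947, 690 and 1100 with vehicle, fell by 1.44 (adjusted p = 0.017 with the block, 0.14 without it). Usp18, at 201, 263 and 164 with AcLDL and 594, 370 and 503 with vehicle, fell by 1.22 (adjusted p = 0.038 with the block, 0.062 without it). Isg15, at 31.9, 32.6 and 24.8 with AcLDL and 55.9, 78.6 and 45.2 with vehicle, had -0.96 and passed in neither (adjusted p = 0.15 with the block, 0.33 without it). Of 22 settings, Irf7 was called in 1, Mx1 in 4, Usp18 in 5 and Isg15 in 0.

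With AcLDL the most negative values in LXR-positive cells were those of Ifit3b and Ifit3. Ifit3 had 563, 635 and 383 normalized counts with AcLDL and 1834, 1855 and 1653 with vehicle in LXR-positive cells, a log2 fold change of -1.78 ± 0.36, and Ifit3b had 89.3, 144 and 67.2 with AcLDL and 414, 307 and 324 with vehicle, a change of -1.85 ± 0.38 (limma adjusted p = 0.092 and 0.097). The smallest p in DKO belonged to Ddx58, Parp9, Sp100, Phf11d, Parp14 and Phf11b, at -0.48, -0.42, -0.39, -0.59, -0.43 and -0.66 (limma adjusted p from 0.60 to 0.69). In DKO Ifit3 had 880, 386 and 796 with AcLDL and 1473, 699 and 1895 with vehicle, which was -0.95 and did not pass. The 7 IFIT and GTPase genes had a median of -0.76 in DKO and -1.44 in LXR-positive cells, and the 3 transcription factors -0.36 in DKO and -0.77 in LXR-positive cells. Trim25 had 4163, 3828 and 4060 with AcLDL and 3434, 3265 and 3867 with vehicle in DKO, and was the 1 member with a positive value there, 0.19. In LXR-positive cells it had -0.02, the smallest change of the set.

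The difference in the AcLDL response, DKO minus LXR-positive, was positive for all 51 members, against 49.4% of all genes, with a median of 0.35. None passed in limma, edgeR or DESeq2 (limma background 0.00624% called higher), and Dhx58, Oas1g, Oas3 and Usp18 had an unadjusted p under 0.05 with a positive sign, as did 1.72% of all genes. Oas1g had the smallest p, with a difference of 0.83 ± 0.23 (SE, limma adjusted p = 1.00), and the authors' deposited table gives it 0.84 with an adjusted p of 0.325. That table has 0 of 51 members passing, where 0.0651% of all genes do. In the LXR-positive libraries the neutrophil markers summed to 3073 to 3585 with AcLDL and 4203 to 4626 with vehicle, and the macrophage markers to 236534 to 272091 with AcLDL and 243034 to 314523 with vehicle. Their part in the lower values was not tested. Of the interferon pathway genes outside the set, 0 passed with AcLDL in either genotype. The LXR targets Abca1 and Abcg1 had 0.10 and 0.32 in DKO, which did not pass, and rose by 1.18 and 1.72 in LXR-positive cells.

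**Figure D5:**
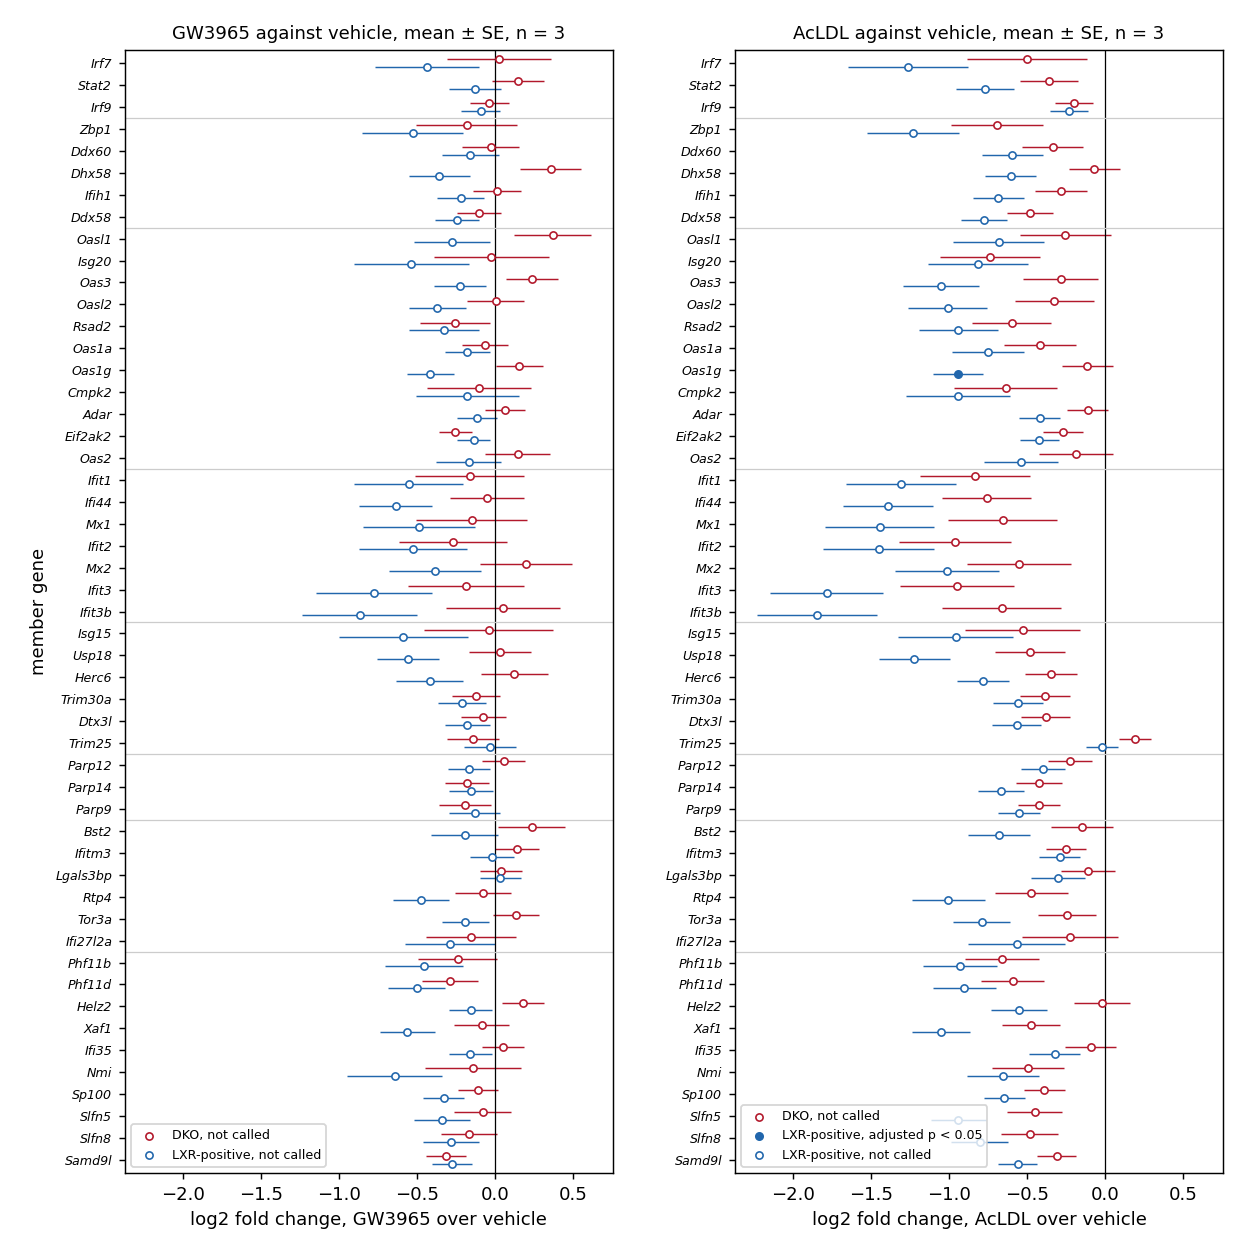
Log2 fold change over vehicle for each of the 51 genes with GW3965 (left) and AcLDL (right) ± the limma SE, which pools all 12 libraries of a fit, with 3 libraries per group. DKO is in red above LXR-positive in blue, filled where the limma adjusted p was under 0.05. With AcLDL the LXR-positive values lie left of the DKO values for all 51 genes, and Oas1g is the 1 filled point.

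GW3965 gave negative values for nearly the whole set in LXR-positive cells, and no member passed. There 50 of 51 members had a negative log2 fold change, as did 52.8% of all genes, with a median of -0.28 against -0.016. In DKO 30 of 51 were negative, as were 49.7% of all genes, with a median of -0.05. The limma test called 0 members in either genotype (background 0.00621% called lower in DKO and 0.0186% in LXR-positive cells), and so did edgeR and DESeq2. At an unadjusted p under 0.05, 2 members were lower in DKO, where 3.14% of all genes were, and 8 were lower in LXR-positive cells, where 2.8% were. All 3 GW3965 libraries lay below all 3 vehicle libraries for 0 members in DKO (7.16% of all genes) and for 24 in LXR-positive cells, where 4.48% of all genes did.

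Xaf1, a proapoptotic antagonist of XIAP, had the smallest p. It had 380, 410 and 408 normalized counts with GW3965 and 588, 636 and 549 with vehicle in LXR-positive cells, without overlap, and 548, 403 and 673 with GW3965 and 654, 456 and 595 with vehicle in DKO. The log2 fold change was -0.56 ± 0.18 in LXR-positive cells (SE, n = 3 each, limma adjusted p = 0.52) and -0.08 in DKO. Usp18 had 291, 396 and 302 with GW3965 and 594, 370 and 503 with vehicle in LXR-positive cells, where mouse 2 overlapped the vehicle range, with -0.56. Ifit3b had the lowest value in LXR-positive cells, -0.87, from 167, 150 and 270 with GW3965 against 414, 307 and 324 with vehicle. Phf11d, Oas1g, Ifi44 and Rtp4 had -0.50, -0.41, -0.64 and -0.47 in LXR-positive cells. In DKO the smallest p belonged to Samd9l, Eif2ak2, Dhx58, Phf11d, Oasl1 and Oas3, at -0.31, -0.25, 0.36, -0.29, 0.37 and 0.24 (limma adjusted p from 0.85 to 0.92), of mixed sign.

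Mouse by mouse, 17, 40 and 26 of the 51 genes were lower with GW3965 than with vehicle in DKO mice 1, 2 and 3, and 51, 34 and 47 were lower in LXR-positive mice 1, 2 and 3. With AcLDL 34, 49 and 50 genes were lower in DKO mice and 51, 47 and 49 in LXR-positive mice. The difference in the GW3965 response, DKO minus LXR-positive, was positive for 46 of 51 members against 51.7% of all genes, with a median of 0.26, and 0 passed in limma, edgeR or DESeq2 (limma background 0.00621% called higher), with Oas1g (0.57) and Dhx58 (0.71) at an unadjusted p under 0.05, where 2.18% of all genes were. The authors' deposited table has 46 of 51 positive and 0 passing, where 0.24% of all genes pass.

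With vehicle alone, the set was lower in DKO for 44 of 51 members, against 48.7% of all genes, with a median of -0.30. No member passed in limma (background 0.0745% called lower), edgeR or DESeq2, and 13 were lower at an unadjusted p under 0.05, where 6.92% of all genes were. Usp18 had the smallest p, with 284, 266 and 359 normalized counts in DKO and 594, 370 and 503 in LXR-positive cells, without overlap and with -0.67 ± 0.20 (SE, n = 3 each, limma adjusted p = 0.22). Ifit1, with 912, 759 and 1427 in DKO and 2501, 1363 and 2170 in LXR-positive cells, had the lowest value, -0.97, and its groups overlapped. Ddx60, Phf11d, Phf11b, Oas1a and Ddx58 had -0.54, -0.53, -0.73, -0.41 and -0.39, and Isg15 had 0.04. All 3 DKO vehicle libraries lay below all 3 LXR-positive vehicle libraries for 11 members, as they did for 10.1% of all genes. With GW3965 24 of 51 members were higher in DKO than in LXR-positive cells (median -0.03), and with AcLDL 32 were (median 0.11), and limma and edgeR called 0 in each (limma background 4.2% called higher with GW3965 and 3.76% with AcLDL), while DESeq2 called 2 higher in each (background 5.75% with GW3965 and 4.83% with AcLDL). At an unadjusted p under 0.05, 7 were higher and 4 lower in DKO with GW3965, where 13.6% of all genes were higher and 13.7% lower, and 10 were higher and 0 lower with AcLDL, where 12.4% were higher and 13.8% lower. The smallest p with GW3965 belonged to Dhx58, Helz2, Eif2ak2, Nmi, Bst2 and Lgals3bp, with DKO over LXR-positive differences of 0.65, 0.43, -0.27, 0.75, 0.52 and -0.33 (limma adjusted p from 0.06 to 0.14), and with AcLDL to Helz2, Bst2, Dhx58, Xaf1, Stat2 and Trim25, with differences of 0.63, 0.63, 0.47, 0.51, 0.50 and 0.26 (limma adjusted p from 0.05 to 0.13). The same vehicle libraries enter every response and every genotype difference in response above.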

How the data were processed

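RNA was sequenced from 24 cultures, 3 mice per genotype, as 50 bp single-end reads from 500 ng of total RNA with a stranded SMARTer kit, per the labels' protocols. Kallisto, DESeq2 and GRCm38 are named in the submitters' processing notes, which give no versions. The deposited expression values are the authors' normalized counts per gene, a signal already divided by a size factor per library; whole reads were recovered for each value within 0.01 read. The authors' deposited tables also give a log2 fold change with its error, a test score, and p-values for each difference in response between genotypes. All per-sample columns were used, and 0 others were present.

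Genes with at least 10 normalized counts in at least 3 of 12 libraries were tested per treatment with limma 3.58.1 in R 4.3.3 (trend) on log2(normalized count + 1), a scale that understates the change of low genes. Called means a Benjamini-Hochberg adjusted p under 0.05 over all genes tested. Each SE is the moderated SE of limma, from a spread shared by the 12 libraries of a fit. It does not describe the spread of the named groups alone. The vehicle contrast came from the GW3965 fit. Recovered reads were also tested with edgeR 4.0.16 and DESeq2 1.42.0, and the statistics were tested on simulated data. Each mouse gave 1 library per treatment, per the series' design text, so same-numbered libraries of a genotype are paired; their deviations from group means correlated with a median r of 0.139 over 36 pairs and 17082 genes (range -0.00942 to 0.341), and 28 pairs were over 0.1.

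The members, the lists of pathway genes and markers, and the tests were chosen with earlier results of these data known. Genes named are a group of 9 members with values by library where a result turns on them, the 6 members with the largest change among those called in each comparison (the 6 smallest p where none was called), members that moved least or against the rest, and pathway genes that were called, some of which are not reported here. Promoters were those of RefSeq, with the motif sought on both strands. Figures were drawn with matplotlib 3.10.9.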

Additional observations from a re-analysis of the deposited data

Results flagged for a closer look

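Dhx58 (LGP2, a regulator of RIG-I and MDA5 signalling) moved in opposite directions with GW3965 in the mice of each genotype. Its log2 difference from vehicle was 0.09 to 0.51 in the 3 DKO mice and -0.61 to -0.04 in the 3 LXR-positive mice, and the difference in response was 0.71 (limma adjusted p = 0.99). Oasl1 did likewise, with 0.28 to 0.53 in DKO mice, -0.31 to -0.24 in LXR-positive mice and a difference in response of 0.65 (limma adjusted p = 0.992). Neither difference passed the test. Dhx58 and Oasl1 were found by a search of all 51 members and 3 treatments for opposite signs in every mouse, or a called difference. The share of all genes with such opposite signs was not computed, so these genes cannot be set against it.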

How the results depend on the processing

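Responses to KLA were called for 38 to 48 members in DKO and 33 to 39 in LXR-positive cells when any 1 library was left out. For AcLDL in LXR-positive cells, against 1 member called, 0 were called with no filter on low values, with quantile normalization and by edgeR, 9 with only the 6 libraries compared and 9 with all 24 libraries in one fit, 22 with the mouse block (replicate block), 28 by DESeq2, 14 without mouse 2 of both genotypes, which was chosen after seeing the data, and 0 to 4 with 1 library left out. With the mouse block 1 was called for AcLDL in DKO, and the block moved no other count by over 1.5 times. With KLA, where 1 member differed between DKO and LXR-positive cells, 3 did with only the 6 libraries, 3 by DESeq2, 2 with all 24 libraries and 0 to 5 with 1 left out. With GW3965, against 0, there were 2 with quantile normalization, 2 by DESeq2, 1 with all 24 libraries and 0 to 1 with 1 left out. With AcLDL, against 0, there was 1 with a pseudocount of 8, 1 with reads thinned to the smallest library, 2 with quantile normalization, 2 by DESeq2, 2 with all 24 libraries and 0 to 1 with 1 left out. The other counts of 0 stayed at 0 in every alternative run. Where no share of all genes is given for a setting, its count was not set against one. Uncalled KLA values changed sign in a few genes. With 1 library left out, the LXR-positive values ran over -0.1385 to 0.7259 for Ifit2, -0.6105 to 0.02193 for Ifit3, -0.0003009 to 0.3507 for Oas2, -0.02537 to 0.5425 for Rsad2 and -0.02377 to 0.4416 for Slfn8. The negative end of each was the value without KLA library 2. The DKO values of Ifit3b ran over -0.1206, without vehicle library 2, to 0.4711. Without mouse 2 of both genotypes, the LXR-positive values were -0.2983 for Ifit2, -0.2137 for Oas2, -0.1616 for Rsad2, -0.03963 for Slfn8, -0.1201 for Cmpk2 and -0.0556 for Mx2, and the DKO value of Ifit3b was -0.04243. With quantile normalization Slfn5 was at -0.01327 in LXR-positive cells. The cause of these changes was not tested.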
